A study of Mus musculus with 7 samples.

Results

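Ribosomes are the particles that translate mRNA into protein, and each is built from a large and a small subunit of RNA and many different proteins. The proteins are encoded by single genes scattered over the genome, their mRNAs are abundant in nearly every cell, and mTOR signalling controls the translation of these mRNAs through a run of pyrimidines at their start. The liver holds many ribosomes because hepatocytes secrete most plasma proteins. Genes of the cytosolic ribosomal proteins were examined here in the liver of control mice and of mice given lipopolysaccharide (LPS), a component of the outer membrane of gram-negative bacteria that is used as a model of septic liver injury. Members were the genes named Rpl or Rps with a number, with the paralogs named after them, together with Rplp0, Rplp1, Rplp2 and Rpsa, if they had at least 100 counts summed over all samples. Of the 56691 genes measured, 90 had such a name and 84 reached that sum, 50 of the large subunit and 34 of the small subunit. Rpl3l, Rpl39l, Rpl32l, Rps3a3, Rpl10l and Rps12l1 had 4, 10, 5, 99, 0 and 0 counts in all and were left out. Rps3a2 had the fewest counts among the members, 159, and Rps3a3 was just below the minimum. All 84 members passed the filter on low counts, and 77 of them encode the proteins of the standard mammalian ribosome. The remaining 7 are Rps27l, Rpl22l1, Rpl36al, Rpl7l1, Rps4l, Rps3a2 and Rpl6l, and the last 3 are pseudogenes in the GENCODE M21 annotation.

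Livers of 4 control and 3 LPS mice were sequenced, all from male C57BL/6J mice, an inbred strain, bought at 8 weeks of age and housed for 2 weeks. LPS mice were killed 24 h after an injection of 10 mg/kg into the abdominal cavity, and no agent is named for the controls. The study kept 6 mice in each group, and mice given sulforaphane before LPS were not analysed here. Polyadenylated RNA was sequenced, and the values are read counts per gene. Controls 1 to 4 had totals of 14991022, 15096573, 15721944 and 18584140 counts, and LPS mice 1 to 3 had totals of 20500391, 17095607 and 17821331. Levels are given in CPM after scaling by the TMM method, in which the bulk of genes is taken as level between samples. At this depth 3 counts, used as the floor of counting, equal 0.138 to 0.212 CPM, below the level of each member in each sample.

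The labels of tissue and treatment were checked first. Alb, the gene of serum albumin, had 37958, 37776, 61686 and 50491 CPM in the controls and 24642, 24659 and 24693 CPM in the LPS mice, so all samples carried an abundant hepatocyte transcript. It was lower with LPS by -0.93 on the log2 scale, a call that was lost without LPS mouse 2 or 3 (-0.93 each) and with both summed (-0.92). Lcn2, an iron-trapping protein of the acute phase, had 14.8, 10.3, 7.94 and 6.24 CPM in the controls and 6592, 9070 and 9256 CPM in the LPS mice. Both labels were therefore met by their markers. The libraries also differed in ways that the labels do not describe. Transcripts encoded by the mitochondrial genome took 23.7%, 14.6%, 7.48% and 8.96% of the counts in controls 1 to 4, and 6.45%, 3.83% and 3.94% in LPS mice 1 to 3. LPS mice 2 and 3 were the closest pair of libraries, with an SD of the log2 ratio of 0.22 over 6989 genes outside the family that averaged 10 CPM or more, against 0.35 to 0.56 in the other 8 pairs within a group. They were kept as separate mice, as labelled, and where summing both ends the call of a gene given with its fold change, the value with both summed is given.

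After LPS, 14 ribosomal protein genes were higher and 0 were lower, out of 84, at an adjusted p below 0.05 (edgeR, quasi-likelihood, Benjamini-Hochberg over all 13683 genes tested). Over all genes tested, 13.3% were higher and 13% were lower by the same rule, so the share of members that were higher, 16.7%, was near the background and is not a result about the members. Among them were Rpl41, Rplp0, Rps9, Rpl5, Rpl9, Rpl13a, Rpl7l1, Rps15a, Rps4x, Rps6, Rps26, Rpl23a and Rps3. With edgeR 30 members were higher and 3 were lower at an unadjusted p below 0.05, and with DESeq2 20 members were higher and 1, Rps27l, was lower at an adjusted p below 0.05. For comparison, 18.7% of all genes were higher and 18.7% lower by the unadjusted p, and 14.9% and 14.8% by DESeq2. No member passed an absolute log2 fold change of 1 in addition, with edgeR or with DESeq2, while 7.81% of all genes were higher and 7.31% were lower by that rule. All 3 LPS mice were above all 4 controls for 24 members and below them for 0 members, where 18.1% and 17.4% of all genes tested were above and below. For the other members the groups overlapped.

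The count of 14 depended on single libraries. It was 3 without LPS mouse 2, 3 without LPS mouse 3 and 3 with both summed into 1 sample, and these 3 were Rpl41, Rplp0 and Rps9 each time. That is 3.57% of the members, below the 9.21%, 9.16% and 9.47% of all genes that were higher in those fits. It was 26 without control 2, or 31% against 11.2% of all genes, and 9 without control 4, or 10.7% against 11.8%. With total counts and no scaling factors, 4 members were higher and 2, Rpl35a and Rps27l, were lower, against 9.87% and 15% of all genes. That setting moved the median log2 fold change of all genes by -0.12 and the share of calls that were higher from 50.7% to 39.6%. The members' median relative to the median of all genes was 0.32 under both scalings, since another scaling shifts members and other genes by nearly the same amount. With RLE scaling, with TMM factors from genes outside the family, or with library sizes that omit any gene above 1% of counts, 14, 14 and 15 members were higher.

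Although few single members passed the test, most of the family lay on one side with all 7 samples. The log2 fold change was above 0 for 76 of 84 members, or 90.5%, against 49.1% of all genes tested, and for 67 members without scaling factors. It was above 0 for 66 members without control 3 and for 66 without control 4. In fits chosen after seeing the data, it was above 0 for 52 without controls 3 and 4 and for 80 without controls 1 and 2. Their median was 0.31, and their quartiles were 0.14 and 0.42. Over all genes tested the median was -0.01 and the quartiles were -0.44 and 0.39. The members together took 1.44%, 1.82%, 1.32% and 1.36% of the counts in controls 1 to 4 and 1.76%, 1.68% and 1.67% in LPS mice 1 to 3. Control 2 had the largest share of all samples, so the groups overlapped in this sum. As a share of the counts outside the mitochondrial genome the members took 1.89%, 2.14%, 1.43% and 1.497% in the controls and 1.88%, 1.75% and 1.74% in the LPS mice, and controls 1 and 2 then both lay above the LPS mice. In a bulk sample, more RNA per cell and more cells of a type that is rich in such RNA cannot be told apart.

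Large and small subunit genes differed little in their median, and the difference was not tested. The median log2 fold change was 0.29 over the 50 large subunit members and 0.35 over the 34 small subunit members, a difference of -0.05 for large minus small. Of the large subunit members 7 were called higher, or 14%, and of the small subunit members 7, or 20.6%, against 13.3% of all genes tested. Over the canonical proteins alone the medians were 0.29 for 46 large and 0.37 for 31 small subunit genes, and all 31 small subunit genes had a log2 fold change above 0, against 42 of the 46 large subunit genes. The large subunit was the more spread of the pair, with a range between the quartiles of 0.31 against 0.18. In each sample, the median over members of log2 CPM minus the control mean was compared between the subunits. Large minus small was 0.00, -0.03, 0.03 and -0.05 in controls 1 to 4 and -0.03, -0.04 and -0.10 in LPS mice 1 to 3, so the groups overlapped. The counts of all large subunit genes divided by those of all small subunit genes were 1.433, 1.363, 1.391 and 1.390 in the controls and 1.358, 1.3402 and 1.348 in the LPS mice. This ratio needs no scaling between libraries, and the 3 LPS mice were below the 4 controls, with control 2 and LPS mouse 1 nearly level.

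**Figure D1:**
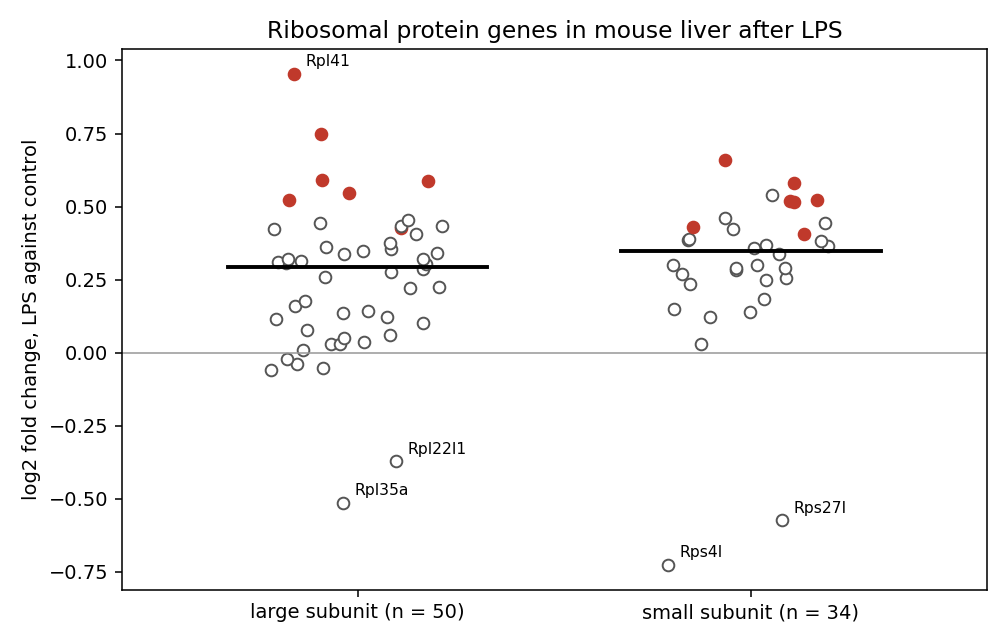
Log2 fold change of LPS against control for each ribosomal protein gene, by subunit (50 large, 34 small). Filled points are the 14 genes called by edgeR, black bars are the medians of 0.29 and 0.35, and named genes lie over 3 scaled median absolute deviations from the median of all members; without scaling factors, Rpl35a and Rps27l were also called lower.

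The members were not level among the control mice. Relative to the mean of the controls, their median log2 CPM was 0.18, 0.34, -0.22 and -0.28 in controls 1 to 4, and 0.24, 0.36 and 0.37 in LPS mice 1 to 3. Control 2 had all 84 members above the control mean, control 1 had 62, and controls 3 and 4 had 11 and 7. The LPS mice had 74, 79 and 79 members above it. Control 2 thus resembled the LPS mice in this respect more than it resembled controls 3 and 4. Controls 1 and 2 also had the larger shares of mitochondrial RNA. With mitochondrial genes left out of the fit, the same 14 members were higher and their median log2 fold change was 0.29. The comparison was also run with either pair of controls left out, a choice made after these values had been seen. Since the members were high in controls 1 and 2, the direction of each shift was fixed by that choice, and the values only describe its size. Without controls 1 and 2 the members' median log2 fold change was 0.56, with 69 members and 13.1% of all genes higher. Without controls 3 and 4 it was 0.09, with 11 members higher, all among the 14, and 7 lower, namely Rpl22l1, Rpl27, Rpl35a, Rpl36, Rpl38, Rps27l and Rps4l. In that fit 16% of all genes were higher and 14.1% lower. Over all genes tested, the same median was between 0.00 and 0.02 in all 7 samples.

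Within a pair of libraries the members were less spread as a set than other genes averaging 50 CPM or more, except in LPS mice 2 and 3. The SD over members of the log2 ratio was 0.13 to 0.16 in the 3 pairs of LPS mice and 0.21 to 0.41 in the 6 pairs of controls. Over the 2104 other genes that averaged 50 CPM or more it was 0.13 to 0.33 in LPS pairs and 0.31 to 0.56 in control pairs. For LPS mice 2 and 3 the members, at 0.14, were no tighter than those other genes, at 0.13. Over the 6989 other genes that averaged 10 CPM or more, the SD in that pair was 0.22. In controls 1 and 3 the spread was nearly as large as the members' median difference of 0.43. The widest control pair was controls 1 and 3, at 0.41.

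This spread among controls went with gene length. Coding length was taken from GENCODE M21 for the 81 members that have one, which were split into 3 classes of 27 genes after the values had been seen. For the 27 shortest, of 78 to 399 nt, the median log2 CPM relative to the control mean was 0.34, 0.42, -0.33 and -0.39 in controls 1 to 4 and 0.18, 0.21 and 0.31 in LPS mice 1 to 3. The LPS mice lay between the controls there. For the 27 longest, of 579 to 1260 nt, it was -0.07, 0.22, -0.03 and -0.11 in the controls and 0.26, 0.42 and 0.40 in the LPS mice, which were above all controls. The shortest, middle and longest classes held 3, 1 and 10 called genes, where 13.3% of all genes tested were higher, and their median log2 fold changes were 0.18, 0.27 and 0.37. Across the 81 genes, Spearman's rho between coding length and the deviation from the control mean was -0.65, -0.68, 0.70 and 0.61 in controls 1 to 4, values that share a mean and so are not independent of each other. The rho between coding length and the log2 fold change was 0.35. Genes measured in the same libraries are not independent replicates.

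Genes outside the family showed part of the same pattern. For the 103 other protein-coding genes with a transcript of up to 600 nt that averaged 10 CPM or more, the median was 0.42, 0.28, -0.36 and -0.34 in controls 1 to 4. In LPS mice 1 to 3 it was -0.32, -0.24 and -0.25, below controls 1 and 2 and slightly above controls 3 and 4. The 1973 genes with transcripts over 4000 nt had medians between -0.11 and 0.14 in the 7 samples. Ribosomal protein genes of short coding length and other genes of short transcript length were thus both higher in controls 1 and 2 than in controls 3 and 4. In the LPS mice the medians of the former were the higher ones. These 2 measures of length differ, and Rps20, for example, has 360 coding nt in a transcript of 3706 nt. The part of RNA quality or library preparation in this split was not tested.

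**Figure D2:**
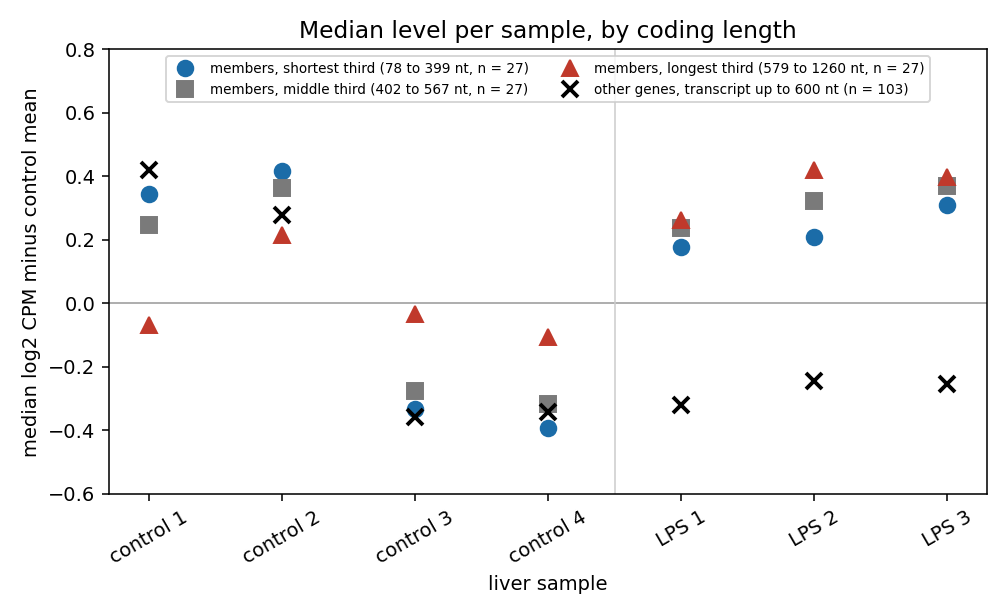
Median over genes of log2 CPM minus the mean of the 4 controls, in each liver sample, for members in 3 classes of coding length (27 genes each) and for 103 other genes with transcripts up to 600 nt. The shortest class lies at 0.34 and 0.42 in controls 1 and 2 and at -0.33 and -0.39 in controls 3 and 4, and the longest class is higher in all 3 LPS mice than in all 4 controls.

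Rpl38, a small protein of the large subunit, shows the pattern in a single gene. It had 51.3, 51.4, 20.8 and 21.6 CPM in controls 1 to 4 and 36.6, 35.7 and 41.0 CPM in LPS mice 1 to 3. The LPS mice lay between the controls, and the log2 fold change was 0.06 (standard error 0.30). Rps28, a short protein of the small subunit, had 38.8, 44.0, 18.8 and 22.1 CPM in the controls and 39.0, 38.4 and 39.6 CPM in the LPS mice. Here the LPS mice were level with the higher controls. Both genes were chosen after their values had been seen.

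Rpl41 (ENSMUSG00000093674) was the only member that lay over 3 scaled median absolute deviations (0.19 each) above the members' median. It encodes the shortest protein of the ribosome. It had 166, 249, 169.5 and 174 CPM in controls 1 to 4 and 278, 414 and 409 CPM in LPS mice 1 to 3. All LPS mice were above all controls, and control 2 was closest to them. The means were 189 ± 39.9 CPM (SD, n = 4) and 367 ± 77.3 CPM (SD, n = 3), and the log2 fold change was 0.95 (standard error 0.19, edgeR quasi-likelihood adjusted p = 0.00275). Its log2 fold change stayed between 0.81 and 1.12 in 19 alternative fits, with an adjusted p of at most 0.0205 in each of these edgeR and DESeq2 fits. Apart from control 2, its controls were nearly level.

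Rplp0 and Rps9 followed. Rplp0 (ENSMUSG00000067274) is the protein that anchors the stalk of the large subunit, to which elongation factors bind. It had 219, 285, 252 and 233 CPM in the controls and 361, 452 and 433 CPM in the LPS mice. The groups were apart, and the means were 247 ± 28.5 CPM (SD, n = 4) and 415 ± 48.4 CPM (SD, n = 3), and the log2 fold change was 0.75 (standard error 0.15, edgeR adjusted p = 0.00267). Rps9 (ENSMUSG00000006333), an early-binding protein of the small subunit, had 193, 255, 198 and 187 CPM in the controls and 295, 352 and 341 CPM in the LPS mice. Again no LPS mouse overlapped a control, and the log2 fold change was 0.66 (standard error 0.15, edgeR adjusted p = 0.00675). Rplp0 and Rps9 were called in all 19 alternative fits, with log2 fold changes of 0.62 to 0.85 and of 0.54 to 0.76 and adjusted p values of at most 0.0231 and 0.0434 from edgeR and DESeq2. The other 11 called members had log2 fold changes of 0.41 to 0.59 and adjusted p values of at most 0.0438 from edgeR's test, and each was called in 9 to 16 of the 19 alternative fits.

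**Figure D3:**
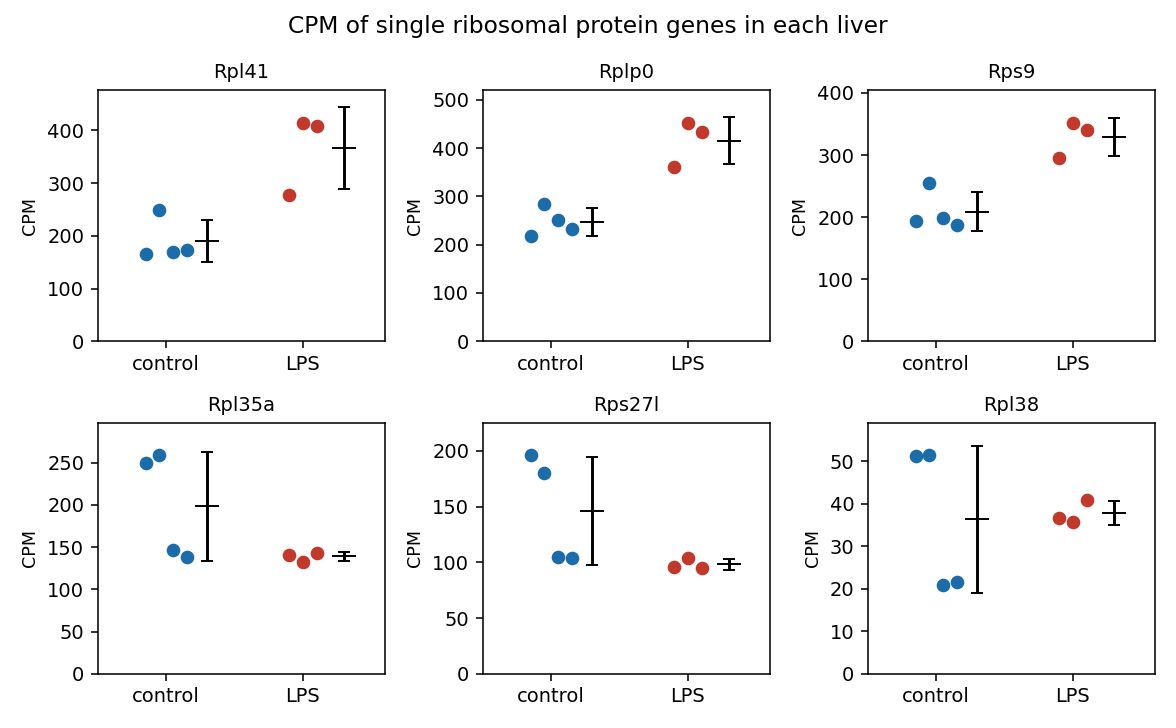
CPM of 6 members in each liver, with control mice on the left and LPS mice on the right of each panel, and the mean with its SD beside the points (n = 4 and n = 3). Rpl41, Rplp0 and Rps9 show no overlap between groups, whereas controls 1 and 2 stand above controls 3 and 4 in Rpl35a, Rps27l and Rpl38, with 249.8 and 259 against 147 and 138 CPM for Rpl35a.

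The members far below the family's median were Rps4l, Rps27l, Rpl35a and Rpl22l1, of which 3 are paralogs of another member. None passed the test. Rpl35a, a canonical protein of the large subunit, had 249.8, 259, 147 and 138 CPM in controls 1 to 4 and 141, 133 and 143 CPM in LPS mice 1 to 3. The LPS mice were level with the lower controls, and the log2 fold change was -0.51 (standard error 0.22, edgeR adjusted p = 0.110). Rps27l, a paralog of Rps27 that is known as a p53 target, had 196, 179.8, 105 and 104 CPM in the controls and 95.9, 104 and 94.7 CPM in the LPS mice. Controls 1 and 2 were again the highest, with a log2 fold change of -0.57 (standard error 0.23, edgeR adjusted p = 0.0805). Rpl22l1, a paralog of Rpl22, had 82.4, 79.8, 52.7 and 49.8 CPM in the controls and 51.4, 51.6 and 50.4 CPM in the LPS mice, a log2 fold change of -0.37 (standard error 0.19, edgeR adjusted p = 0.175). Rps4l had 18.9, 22.9, 7.03 and 19.9 CPM in the controls and 12.2, 11.1 and 7.78 CPM in the LPS mice, with control 3 the lowest of all. Its log2 fold change was -0.73 (standard error 0.33, edgeR adjusted p = 0.123).

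Whether these genes were called changed with the controls used and with other settings. Without control 3, edgeR called Rps27l (log2 fold change -0.71), Rpl35a (-0.64) and Rps4l (-0.99) lower, and without control 4 it called Rps27l (-0.71) and Rpl35a (-0.66) lower. With all 7 samples, Rps27l was also called lower by DESeq2 (adjusted p = 0.0497), and by edgeR with no filter, with total counts and with the replicate number as a block. Rpl35a was also called lower by edgeR with no filter and with total counts, and Rps4l with no filter. Over the 19 alternative fits with edgeR or DESeq2, adjusted p values ranged from 0.000402 to 0.571 for Rps27l, 0.000664 to 0.795 for Rpl35a, 0.00285 to 0.495 for Rps4l and 0.00237 to 0.937 for Rpl22l1. The sign was negative in each of these fits for all 4 genes.

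The paralogs were also set against the member they are named after, as the log2 of the ratio of their CPM in each sample, which no scaling between libraries changes apart from the small prior count. For Rps27l over Rps27, 2 genes with the same coding length of 255 nt, it was 1.89, 1.47, 1.35 and 1.30 in controls 1 to 4 and 0.75, 0.74 and 0.57 in LPS mice 1 to 3. The ratio was lower in all LPS mice than in all controls. For Rpl36al over Rpl36a, both of 321 nt, it was 0.67, 0.37, 0.70 and 0.54 in the controls and 0.06, 0.20 and 0.03 in the LPS mice, again without overlap. For Rpl22l1 over Rpl22 it was -0.27, -0.44, -0.58 and -0.68 in the controls and -0.75, -0.87 and -0.83 in the LPS mice, and the groups were apart by little. Rpl7l1 over Rpl7 went the other way on average, from -2.82 ± 0.13 (SD, n = 4) to -2.63 ± 0.18 (SD, n = 3), and the groups overlapped. Rpl7l1, a nucleolar relative of Rpl7 that is linked to ribosome assembly, was itself called higher, with a log2 fold change of 0.52 (standard error 0.14), but not without LPS mouse 2 (0.49) or 3 (0.44) or with both summed (0.47). Rps4l over Rps4x had -3.50, -3.78, -5.25 and -3.73 in the controls and -4.76, -5.18 and -5.69 in the LPS mice, with overlap. Of their stretches of 50 nt, Rps27 shared 98.6% with other genes and Rps27l 22.4%, while Rpl36a shared 85.5% and Rpl36al 63.3%. The transcripts of Rps27l and Rps27 also differed in length, at 499 and 345 nt. How reads that fit several genes enter these ratios was not tested. Rpl3l, the form of Rpl3 found in muscle, and Rpl10l, a testis gene, had 4 and 0 counts in all, which allows no ratio. Rpl39l had 0 counts in each control and 3, 6 and 1 counts in LPS mice 1 to 3, too few for a fold change. Rpl3, Rpl10 and Rpl39 had log2 fold changes of 0.45, 0.34 and 0.23 and were not called, though Rpl3 was called in 7 of the 19 alternative fits, among them DESeq2 (0.46), the fit without control 2 (0.51) and the fit without LPS mouse 1 (0.56).

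The stalk is completed by Rplp1 and Rplp2, which bind Rplp0 as dimers. Rplp1 had 186, 203, 101.4 and 106 CPM in controls 1 to 4 and 171, 175 and 196 CPM in LPS mice 1 to 3. LPS mice 1 and 2 lay between the lower and the higher controls and LPS mouse 3 between controls 1 and 2, and the log2 fold change was 0.28 (standard error 0.23). Rplp2 had 61.7, 60.9, 33.5 and 32.4 CPM in the controls and 58.7, 62.7 and 70.6 CPM in the LPS mice, with a log2 fold change of 0.44 (standard error 0.23). Neither was called, unlike Rplp0, though with no filter on low counts Rplp2 was (0.46). Without controls 1 and 2, a choice made after seeing the data, both Rplp1 (0.79) and Rplp2 (0.95) were called higher. Over the 19 alternative fits the log2 fold change of Rplp1 ranged from -0.09 to 0.79. The difference between the 3 stalk genes was not tested. Rpsa, a small subunit protein that is also known as a laminin receptor, had 404, 478, 367 and 338 CPM in the controls and 450, 502 and 501 CPM in the LPS mice. LPS mouse 1 was below control 2, and Rpsa was not called, with a log2 fold change of 0.29 (standard error 0.15).

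Several members have known roles outside the ribosome or in its regulation. Rps6, the target of S6 kinase downstream of mTOR, had 309.7, 385, 324 and 311 CPM in the controls and 448, 495 and 484 CPM in the LPS mice. No LPS mouse overlapped a control, and the log2 fold change was 0.52 (standard error 0.14, edgeR adjusted p = 0.0169). Rpl5 and Rpl11 form a particle with 5S rRNA that binds Mdm2 and thereby stabilises p53 when assembly is disturbed. Rpl5 had 189.9, 259, 228 and 217 CPM in the controls and 289, 360.4 and 363 CPM in the LPS mice, and was called higher with a log2 fold change of 0.59 (standard error 0.15, edgeR adjusted p = 0.0129). Rpl11 had 263, 300.5, 173 and 166 CPM in the controls and 212, 222 and 218 CPM in the LPS mice, which lay between the controls. Its log2 fold change was -0.05 (standard error 0.20). Without LPS mouse 2 or 3, Rps6 (0.49 and 0.51) and Rpl5 (0.55 and 0.54) were not called, nor with both summed (0.51 and 0.55). Whether the partners of this particle differ in their change was not tested.

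Rpl13a leaves the ribosome in myeloid cells treated with interferon gamma and represses the translation of inflammatory mRNAs. It had 66.1, 80.6, 71.6 and 61.2 CPM in the controls and 93.1, 105 and 108 CPM in the LPS mice, and the groups did not overlap. The log2 fold change was 0.55 (standard error 0.14, edgeR adjusted p = 0.0124). Rps3, which also binds the p65 subunit of NF-kappa B, had 189, 221, 192 and 182 CPM in the controls and 239, 274 and 267 CPM in the LPS mice. It was called higher with the smallest change of the 14 genes, a log2 fold change of 0.41 (standard error 0.14, edgeR adjusted p = 0.0438). Without LPS mouse 2 or 3 neither Rpl13a (0.53 and 0.51) nor Rps3 (0.37 and 0.39) was called, and Rps3 was also not called without control 1 (0.39), 3 (0.39) or 4 (0.37). With total counts neither Rpl13a (0.42) nor Rps3 (0.28) was called. The call of Rps3 was also lost with no filter (0.42), with the replicate number as a block (0.37) and without controls 3 and 4 (0.36). With LPS 2 and 3 summed, Rpl13a had 0.53 and Rps3 0.39, and neither was called. Rps27a, which is made as a fusion with ubiquitin, had 210.02, 233, 159.9 and 149 CPM in the controls and 217, 269 and 251 CPM in the LPS mice. LPS mouse 1 was below control 2, and the log2 fold change of 0.39 (standard error 0.18) was not called.

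The members with the most CPM in each subunit, a measure not corrected for length, were Rpl4, Rpl10 and Rpl7 of the large subunit and Rps2, Rps3a1 and Rpsa of the small subunit. Rpl4 had 501, 597, 502 and 502 CPM in the controls and 615, 673 and 666 CPM in the LPS mice. Rpl10 had 442, 493, 454 and 469 CPM in the controls and 555, 605 and 600.6 CPM in the LPS mice. In both genes the LPS mice were above all controls, and the log2 fold changes of 0.31 (standard error 0.14) and 0.34 (standard error 0.13) were not called by edgeR. Rpl7 was also without overlap, with 0.32 (standard error 0.13), and not called by edgeR. DESeq2 called Rpl10 and Rpl7 higher, with adjusted p values of 0.0194 and 0.0308. Rps2 had 359, 485, 500.02 and 459 CPM in the controls and 491, 607 and 557 CPM in the LPS mice, with LPS mouse 1 below control 3. Rps3a1 had a log2 fold change of 0.37 (standard error 0.15), overlapped between groups and was not called by edgeR on all 7 samples. DESeq2 called it on all 7 samples (0.37). With fewer controls edgeR called it too, without control 2 (0.44) and, chosen after seeing the data, without controls 1 and 2 (0.43). These abundant genes moved by amounts close to the family's median.

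Ribosomal protein genes have many processed pseudogenes, and reads that fit both cannot be assigned. The sources used here name HTSeq as the counter but not how such reads were treated. In the GENCODE M21 transcripts, 51 members shared at least 50% of their windows of 50 nt with another gene, 29 shared 10 to 50% and 4 shared less than 10%. The 3 groups held 6, 6 and 2 of the 14 called genes, where 13.3% of all genes tested were higher. The groups' median log2 fold changes were 0.30, 0.30 and 0.47. Rps3, which was called higher, shared 2.96% of its windows, so its value rests almost wholly on sequence of its own. Values of members that share much are uncertain. The largest shares were 98.6% for Rps27, 92.4% for Rps10 and 92.1% for Rpl10, and among called members Rpl9 had 86.7%, Rps6 84.6% and Rpl41 53.1%. Rows named as numbered Rpl or Rps pseudogenes held 2.62% to 2.90% as many counts as the members in the 7 samples. Related rows with other names were left out of this count, among them Gm10243, which shares 52.9% of the windows of Rpl35a.

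Promoter sequences were compared because the family moved largely in one direction and its mRNAs are known to begin with pyrimidines. RefSeq promoters of 300 bases, build GRCm38.p6, were found for 61 of the 84 members. A run of 8 or more letters that are all C or T, read on the strand of the gene, lay within 25 bases of the annotated start in 32 of 61 members, or 52.5%, against 22.3% of 27025 genes. A run of 8 or more A or G there, the same search on the other strand, was found in 8.2% of members and 24.4% of genes. A stricter match, C at the annotated start followed by 4 or more C or T, was found in 13 of 61 members, or 21.3%. It was found in 3.01% of genes, and in 2 of the 12 called members that had a promoter. The letters CCGGAAG or their reverse complement, which shares CTTCC with such C or T runs, were in the promoters of 41.0% of members and 9.93% of genes. AAGATGG on either strand was in 16.4% and 7.28%. The C or T run was in 21 of 37 large and 11 of 24 small subunit promoters, and in 6 of the 12 called members that had a promoter, a share of 50%. A match of letters is no evidence that a factor binds.

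Below are the 30 bases around the annotated start, 15 before and 15 after it, from RefSeq GRCm38.p6, for 5 called members and for the 3 lowest members with a promoter, picked after their values had been seen. Capitals mark the longest run of C or T within these 30 bases.
Rpl41 (chr10:128549154-128549183, minus strand): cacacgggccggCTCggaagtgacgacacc
Rplp0 (chr5:115559452-115559481, plus strand): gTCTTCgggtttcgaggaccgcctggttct
Rps9 (chr7:3704026-3704055, plus strand): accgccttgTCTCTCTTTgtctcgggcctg
Rpl13a (chr7:45128731-45128760, minus strand): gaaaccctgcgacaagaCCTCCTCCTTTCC
Rps6 (chr4:86857353-86857382, minus strand): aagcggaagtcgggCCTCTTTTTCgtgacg
Rpl35a (chr16:33056467-33056496, plus strand): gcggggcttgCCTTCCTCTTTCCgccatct
Rps27l (chr9:66946071-66946100, plus strand): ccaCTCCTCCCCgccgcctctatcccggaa
Rpl22l1 (chr3:28805493-28805522, plus strand): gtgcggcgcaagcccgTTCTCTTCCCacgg
Of these, Rpl41 had the largest rise and only a short run, of 3 letters, while Rpl35a, far below the family's median, had a run of 13 letters, as did the called gene Rpl13a.

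Genes that work beside the ribosomal proteins were taken from lists, whose edgeR counts stand against 13.3% higher and 13% lower over all genes tested. Fau encodes a small subunit protein fused to a ubiquitin-like protein. Fau had 99.6, 122, 60.0 and 64.0 CPM in the controls and 120, 134 and 129 CPM in the LPS mice, and was not called. LPS mice 2 and 3 were above all controls, and LPS mouse 1 was just below control 2. Among 23 translation factors and other genes whose mRNAs begin with pyrimidines, 4 were higher and 1 was lower, with a median of 0.10. Nap1l1, a histone chaperone, had the largest rise, with 59.0, 48.8, 67.4 and 63.2 CPM in the controls and 147, 156 and 141 CPM in the LPS mice, a log2 fold change of 1.31 (standard error 0.14, edgeR adjusted p = 2.64e-05). Eef1b2, an exchange factor of elongation, had 132, 161, 130 and 129 CPM in the controls and 191, 236 and 244 CPM in the LPS mice, with a log2 fold change of 0.70. Eif4a2, an initiation helicase, fell, with a log2 fold change of -0.80 (standard error 0.16, edgeR adjusted p = 0.00327).

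Ribosome assembly factors were counted next. Of 111 tested, 11 were higher and 2 were lower, with a median log2 fold change of 0.11. Eif6, which keeps the large subunit from joining too early, had 15.9, 21.96, 19.2 and 22.98 CPM in the controls and 31.3, 40.8 and 43.5 CPM in the LPS mice, a log2 fold change of 0.94 (standard error 0.17). Rrs1, which brings the 5S particle into the nascent large subunit, had 17.3, 13.3, 20.8 and 16.1 CPM in the controls and 34.4, 30.4 and 32.2 CPM in the LPS mice, a log2 fold change of 0.94 (standard error 0.17). Sbds, which helps release Eif6, was lower, by -0.54 on the log2 scale (standard error 0.14), and so was the assembly ATPase Mdn1, with -0.91 (standard error 0.32). Mdn1 overlapped between groups, and without control 1, the highest sample, it had -0.55 and was not called. It was also not called without control 2 (-0.91) or without LPS mouse 1 (-1.08), 2 (-0.83) or 3 (-0.83), and neither was Sbds without LPS mouse 2 (-0.52) or 3 (-0.48). With LPS 2 and 3 summed, Mdn1 (-0.83) and Sbds (-0.49) were not called. Of 12 tested host genes of small nucleolar RNAs, 0 were called by edgeR in either direction, and 0 had an unadjusted p below 0.05 or were called by DESeq2. Of 29 subunits and factors of RNA polymerases I and III, 2 were higher and 0 were lower with edgeR, where 4 were higher and 4 lower at an unadjusted p below 0.05, and 2 were higher and 0 lower with DESeq2. Polr3gl, a subunit of RNA polymerase III, had a log2 fold change of 0.72 (standard error 0.22), and the call was lost without control 1 (0.67), 3 (0.60) or 4 (0.71) and without LPS mouse 1 (0.68), 2 (0.73) or 3 (0.77) and with LPS 2 and 3 summed (0.75).

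Regulators of mTOR signalling were called at shares no larger than the 13.3% higher and 13% lower among all genes tested. Of 37 genes of mTOR signalling and of pyrimidine-start mRNAs, 3 were higher and 4 were lower, with a median of -0.18. Ddit4, an inhibitor of mTOR complex 1, had 3.82, 5.68, 1.16 and 11.1 CPM in the controls and 35.4, 38.7 and 36.0 CPM in the LPS mice, a log2 fold change of 2.73 (standard error 0.45, edgeR adjusted p = 0.00069). Deptor, another inhibitor of mTOR, had 137, 134, 197 and 187 CPM in the controls and 68.9, 79.8 and 78.6 CPM in the LPS mice, a log2 fold change of -1.11 (standard error 0.17, edgeR adjusted p = 0.000467). Eif4e, the cap-binding factor, was higher with 0.67 (standard error 0.17), and Flcn, which acts on mTOR at the lysosome, was lower with -0.57 (standard error 0.18). Eif4e was not called without LPS mouse 3 (0.58), nor Flcn without control 2 (-0.56), control 3 (-0.48), LPS mouse 2 (-0.48) or LPS mouse 3 (-0.53). Flcn was also not called with the replicate number as a block (-0.62) or without controls 3 and 4 (-0.48). With LPS 2 and 3 summed, Eif4e (0.62) and Flcn (-0.50) were not called. Of 17 genes around Myc and p53, listed apart from these, 5 were higher and 1 was lower. Cdkn1a, a cell cycle inhibitor and p53 target, had 6.09, 8.52, 5.50 and 20.0 CPM in the controls and 123, 134 and 129 CPM in the LPS mice, a log2 fold change of 3.67 (standard error 0.36, edgeR adjusted p = 9.63e-06). Bax, another p53 target, was higher with 0.77 (standard error 0.21), and Mdm4, an inhibitor of p53, was lower with -0.73 (standard error 0.19). Bax was not called without LPS mouse 2 (0.73), nor Mdm4 without LPS mouse 2 (-0.65) or 3 (-0.69) or with both summed (-0.67). Rps27l, also a p53 target, was not higher in these samples. Of 39 initiation factors 4 were higher and 1 was lower, led by Eif1a with a log2 fold change of 1.67 (standard error 0.15).

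Ribosomal proteins of the mitochondrion, which are encoded by other genes and form a separate ribosome, had a median below 0. Of 77 tested, 2 were higher and 7 were lower, 25 had a log2 fold change above 0, and the median was -0.14. Mrpl17 and Mrps12 were higher, with log2 fold changes of 0.67 (standard error 0.17) and 0.64 (standard error 0.20). Mrpl17 was not called without LPS mouse 2 (0.60) or 3 (0.62), nor Mrps12 without control 1 (0.52), control 4 (0.60), LPS mouse 2 (0.60) or LPS mouse 3 (0.60). With LPS 2 and 3 summed, Mrpl17 (0.62) and Mrps12 (0.61) were not called. Mrpl14 had 39.0, 32.1, 21.1 and 17.5 CPM in the controls and 12.8, 12.4 and 12.8 CPM in the LPS mice, and was lower with -1.11 (standard error 0.25, edgeR adjusted p = 0.00551). Mrps35 was lower with -0.92 (standard error 0.20). In Mrpl14 controls 1 and 2 were again above controls 3 and 4. The difference between the cytosolic and mitochondrial families was not tested.

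Neutrophil markers were higher in all LPS mice, and the sum of macrophage markers was high in LPS mouse 1 alone. Neutrophil genes, 10 on the list of which 6 were tested, were all 6 higher, and their summed level was 5.17, 4.54, 2.02 and 2.85 CPM in the controls and 206, 149 and 151 CPM in the LPS mice. S100a9 gave 48.7% of this sum. Genes so low in the controls could pass the filter on low counts through the LPS mice alone, so the count of 6 is no separate evidence. Macrophage and monocyte genes, 9 of 9 tested, had 4 higher and 1 lower with edgeR, and 3 and 1 with DESeq2, with a summed level of 134, 197, 182 and 121 CPM in the controls and 684, 185 and 187 CPM in the LPS mice, led by Marco with 32.9%. LPS mouse 1 stood far above the others in this sum while LPS mice 2 and 3 lay within the range of the controls. No listed marker of either cell type had 0 counts in all samples, but Mpo and Ly6g had 0 counts in all controls and at most 1 and 7 in an LPS sample. The part of these cells in the levels of ribosomal protein RNA was not tested.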

How the data were processed

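Values are read counts per gene in 7 liver samples, deposited by the authors. Per the authors' notes with the samples, reads were trimmed with cutadapt 1.9.1, aligned to GRCm39 with HISAT2 2.2.1 and counted with HTSeq 0.6.1. These notes name DESeq2 1.34.0, while the paper names a later version, and Cufflinks for FPKM values, which are not used here. Strand setting and multi-mapping reads are not described in the sources used here. Counts were filtered by edgeR's filterByExpr, scaled by TMM and tested with edgeR 4.0.16 in R 4.3.3 by quasi-likelihood, LPS against control, with Benjamini-Hochberg adjustment over 13683 genes. Log2 CPM used a prior count of 2. Members and gene lists were chosen with earlier results of these data known, so no score over members was tested.

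Named genes were members over 3 scaled median absolute deviations from the members' median, the 3 with the most CPM in each subunit, stalk proteins and Rpsa, paralog pairs, 6 members with known other roles, rows next to the minimum of 100 counts, up to 2 called genes at each end of a list among those averaging 10 CPM or more, and label markers. Other genes were named after their values were seen: other called members, Rpl38, Rps28, Fau and the genes that lead marker sums.

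Alternatives were DESeq2 1.42.0, RLE scaling, total counts, TMM from genes outside the family, mitochondrial genes left out, genes over 1% left out of the library size, other count filters, other sets of members, a replicate block, each sample left out, LPS 2 and 3 summed, and other thresholds. Leaving out controls 1 and 2, or 3 and 4, was chosen after seeing the data. Coding lengths and shared sequence came from GENCODE M21, promoters from RefSeq GRCm38.p6. The fit was tested on simulated data, but no result of that test is given or used here. Floors cover counting error only.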

Additional observations from a re-analysis of the deposited data

Results flagged for a closer look

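In control 2 alone, several genes lay far above the other 3 controls, relative to the range of the group. Rpl41, the shortest ribosomal protein, had 249 CPM in control 2, against 166 to 174 CPM in the other controls. Rps9, of the small subunit, had 255 CPM there, against 187 to 198 CPM. Rpl4, of the large subunit, had 597 CPM, against 501 to 502 CPM. Rpl7, also of the large subunit, had 416 CPM, against 363 to 372 CPM. Eef1b2, an elongation factor, had 161 CPM, against 129 to 132 CPM. These were 5 of 65 values examined, all in the same library, and chance alone singles out about 5% of such groups.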

How the results depend on the processing

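The median log2 fold change of the members was above 0 and large minus small was below 0 in each setting run. All settings draw on the same libraries, and another scaling moves all members by nearly the same amount. Large minus small could therefore hardly change with the scaling, and its steady sign is not separate evidence. Members called higher, 14 with all samples, were 4 with total counts, 3 with LPS 2 and 3 summed, 3 at an adjusted p below 0.01, 0 with an absolute log2 fold change above 1, and 3 to 26 with 1 sample left out. The 3 other scalings and leaving out mitochondrial genes gave 14 or 15. Of all genes, 9.87% were higher with total counts, 9.47% with LPS 2 and 3 summed and 9.16% to 14.1% with 1 sample left out. Members called lower were 1 with DESeq2, 2 with total counts, 3 with no filter, 1 with the replicate block, and 0 to 3 with 1 sample left out. The shares of all genes that were lower were 14.8%, 15%, 8.32% and 11.6% in those 4 settings. With 1 sample left out they were 8.11% to 13.8%. Without controls 1 and 2, chosen after seeing the data, 69 members and 13.1% of all genes were higher, the members' median was 0.56, large minus small was -0.10, and Rpl11 turned from -0.05 to 0.35. Without controls 3 and 4, 7 members and 14.1% of all genes were lower. Over all genes, 1091 were higher and 993 lower at an adjusted p below 0.01, 1068 and 1000 past a log2 fold change of 1, and 1146 to 1868 lower with 1 sample left out. The cause of these shifts was not tested, apart from stricter thresholds and fewer samples.

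With replicate number as a block, pairing samples of equal number, 11 members were higher, 10 of them among the 14, and 1 was lower. The share of members that were higher, 13.1%, was near the 12% of all genes in that fit, where 11.6% were lower. Correlations between samples of equal number were 0.18, -0.06 and 0.07, so whether the numbers pair mice is unknown. For single genes, 967 values kept their side of the threshold, 116 lost the call, 37 gained it and 1, for Rpl11, reversed and was called. A sign that turned without a call was not counted as reversed. Rplp1 (-0.09 to 0.79) and Rpl39 (-0.15 to 0.76) are examples. With 4 and 3 mice, small changes of single members are not resolved.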

Other observations

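Markers of other liver cells were counted in the same samples. Of 5 erythroid genes 4 were lower with edgeR and 2 with DESeq2, and their summed level was 307, 183, 232 and 179 CPM in controls 1 to 4 and 136, 53.9 and 53.8 CPM in LPS mice 1 to 3, led by Hbb-bs, a globin gene, with 38.3%. Of 7 hepatocyte genes tested 1 was higher and 3 were lower with edgeR, and 2 and 3 with DESeq2, with sums of 63476, 61451, 86516 and 73006 CPM in the controls and 39966, 43690 and 44032 CPM in the LPS mice, of which Alb, serum albumin, gave 63.5%. Both sums were lower in all LPS mice than in all controls.

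Of 9 lymphocyte genes 4 could be tested with edgeR, and 2 were lower, with sums of 8.07, 7.83, 6.17 and 4.11 CPM in the controls and 2.12, 1.48 and 2.43 CPM in the LPS mice, led by Cd4 with 28.9%. Lymphocyte genes so low with LPS could pass the filter on low counts through the controls alone. Of 5 stellate cell genes 2 were lower, with sums of 112, 73.1, 55.2 and 90.8 CPM against 47.5, 45.1 and 49.6 CPM, led by Reln with 36.3%. Both were lower in all LPS mice. Endothelial genes, with 2 of 5 higher and 1 lower, summed to 74.3, 93.2, 56.0 and 83.1 CPM in the controls and 133, 69.5 and 65.0 CPM in the LPS mice, led by Stab2 with 26.6%. Cholangiocyte genes, with 1 of 5 higher, summed to 262, 108, 72.2 and 116 CPM in the controls and 137, 165 and 158 CPM in the LPS mice, led by Spp1 with 86.1%. The groups overlapped in these last sums.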
